A study of Mus musculus with 1094 samples.

Results

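The 10 genes described here encode RNA-binding proteins that set the splicing, stability and translation of neuronal transcripts: Ptbp1, Ptbp2, Nova1, Nova2, Rbfox1, Rbfox2, Srrm4, Elavl2, Elavl3 and Elavl4. They were chosen by symbol, and each has 1 row among the 23078 gene rows of the deposited tables. They were followed over 1094 single cells of the mouse dorsal cerebral cortex, captured on microfluidic arrays between embryonic day 10.5 and postnatal day 3 to compare neural stem cells with their progeny. All cells came from C57Bl/6 mice that are labelled female and, apart from the reporter transgene, wild type.

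Newborn neurons (NBN, 212 cells, stages E16.5, E18.5, P1, P3) and basal progenitors (BP, 344 cells, stages E12.5, E14.5, E16.5, E18.5, P0) were both sorted as green cells from the Tbr2::GFP line, in which the Tbr2 (Eomes) gene drives GFP. How these populations were told apart is not given in the sources used here. Neural stem cells (NSC, 538 cells, stages E10.5, E11.5, E13.5, E15.5, E17.5, E18.5, P0, P1) were sorted from the Hes5::GFP line, in which the Notch target Hes5 drives GFP. GFP protein can outlast the transcription of the gene that drives it, so a green cell may already have left the state that the reporter marks. All cells of 1 population at 1 stage form a set, and the 17 sets are the unit of every comparison. The labels name no animals, so the p-values measure the spread between sets, which may be technical, and within a population stage and capture cannot be told apart.

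In background, Ptbp1 is a repressor of neuronal exons in stem and progenitor cells, and its neuronal relative Ptbp2 takes over part of that role as neurons form. Srrm4 promotes the inclusion of neuronal microexons, Nova and Rbfox proteins activate or repress exons according to where they bind, and the Elavl (Hu) proteins bind U-rich elements of neuronal transcripts. The microRNA miR-124 and the repressor Rest belong to the same circuit: Rest represses neuronal genes, Srrm4 included, in non-neuronal cells, and miR-124 lowers Ptbp1.

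The values are TPM, a share of a cell's transcripts scaled by gene length, so levels can be set side by side between genes. A cell was kept if it had at least 500 genes at 1 TPM or more, which left 1075 cells, 39 to 88 in a set. TPM keep no sequencing depth, and the sets' median cell had between 3189 and 5764 genes over 1 TPM. Rbfox3, a relative of the members, was left out of the newborn neuron markers in the following score. Cells were described as neuron-profile where their mean log2(TPM + 1) over newborn neuron markers was above that over radial glia markers, and as glia-profile otherwise. By that measure 94.9% to 97.0% of cells were neuron-profile in the NBN sets of E16.5, E18.5 and P1, 95.2% to 100% in the BP sets, and 2.27% to 90.7% in the NSC sets. The set labelled NBN P3 went against its label: 27.5% of its cells were neuron-profile, and 36 of 40 cells held markers of another cell type. Its cells' mean log2(TPM + 1) over the newborn neuron markers without Rbfox3 was 1.05, against 5.73 to 7.64 in the other NBN sets. All 12 newborn neuron markers, Rbfox3 included, were lowest there among the NBN sets. The set labelled NSC E15.5 held the 90.7%, and the mean over 12 radial glia markers was 1.99 there, against 2.41 to 6.23 in the other NSC sets, with 4 of the 12 at their lowest among NSC sets. The members' estimates against NSC are therefore also given without these 2 sets.

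Most of these genes were already transcribed in BP sets, whose cells were mostly neuron-profile by the score above. In NSC E10.5, with 2.27% of cells neuron-profile, Ptbp1 and Ptbp2 were at 1 TPM or more in 87.5% and 78.4% of cells. The other members were detected there in 1.14% (Rbfox1) to 45.5% (Nova1) of cells. Ptbp2 was above Ptbp1 on average in all sets but the one labelled NBN P3. In NSC E10.5 that order leaned on a single cell, which held 22.1% of the summed Ptbp2. The medians over the E10.5 cells went the other way, with 79.5 TPM for Ptbp1 and 59.3 TPM for Ptbp2. Ptbp1 was the higher in 46 of these cells and Ptbp2 in 39. The Rbfox genes, Srrm4, Nova2 and the Elavl genes had higher estimates in BP than in NSC sets, by 0.98 to 2.76 on the log2 scale. None of the 10 genes passed the test over all genes in NBN against NSC, BP against NSC or NBN against BP, or with age in NSC. The backgrounds were 1.74% of 14093 genes called in NBN against NSC, 0.511% in BP against NSC, 0.0284% in NBN against BP and 1.44% with age in NSC (limma, Benjamini-Hochberg adjusted p under 0.05). At an unadjusted p under 0.05 there were 3, 7, 2 and 0 members in these comparisons, beside 16%, 13.7%, 9.24% and 13.1% of all genes. The lowest adjusted p of a member was 0.148 for NBN against NSC, 0.118 for BP against NSC, 0.496 for NBN against BP and 0.568 with age.

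**Figure D1:**
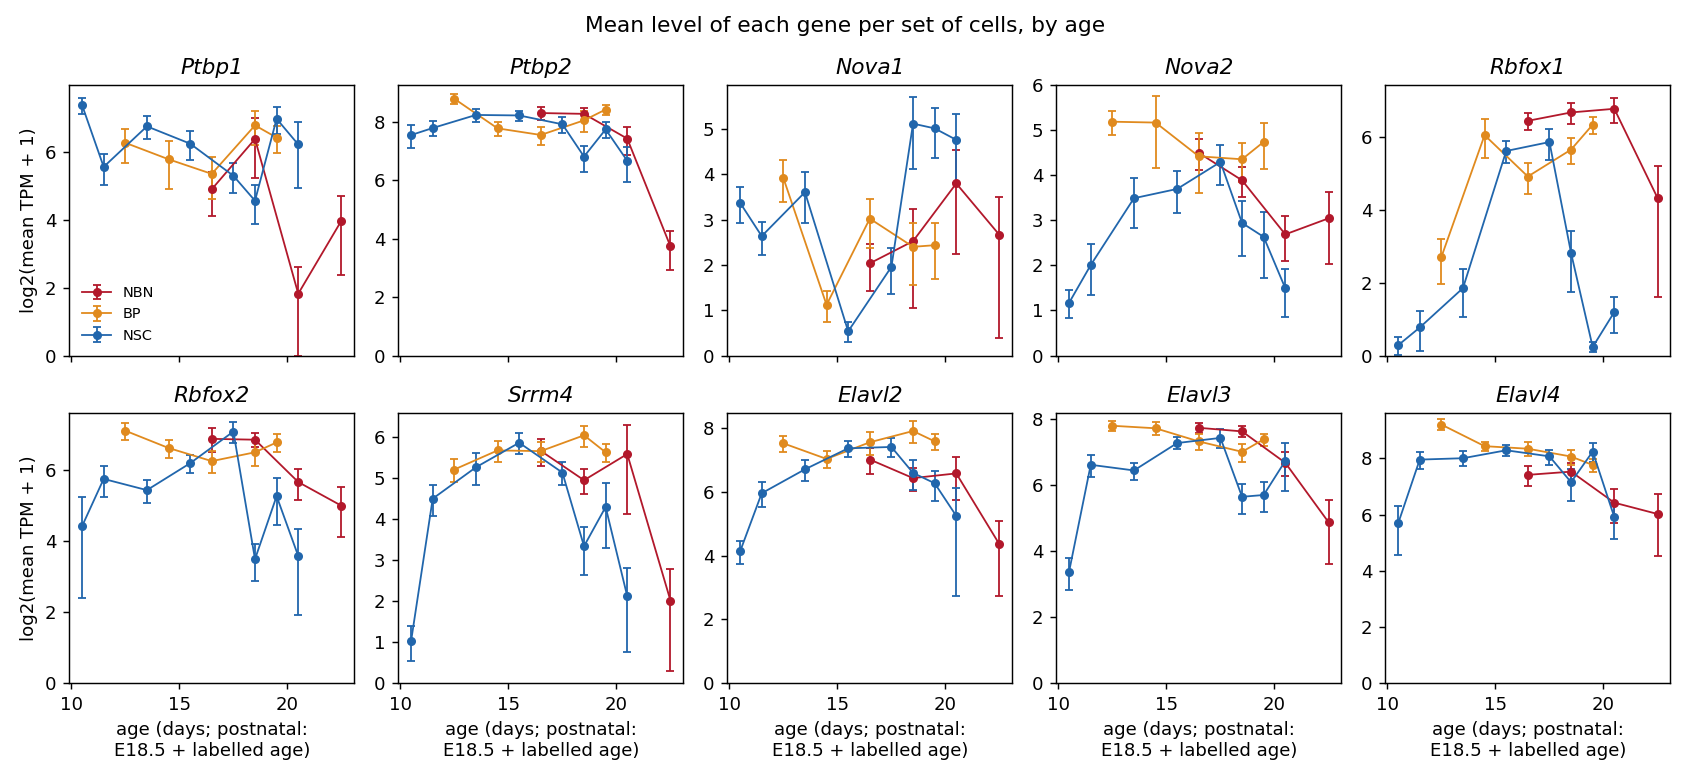
Each panel plots 1 gene, with age in days on the x axis and log2(mean TPM + 1) of each set on the y axis. Sets of P0, P1 and P3 stand at 19.5, 20.5 and 22.5 days. Points are NBN (red), BP (orange) and NSC (blue) sets, bars are 1 SE over the cells of a set, and the low point at the right end of the Ptbp2 and Rbfox1 panels is the set labelled NBN P3, at 12.3 and 19.2 TPM.

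Ptbp1 lies on chromosome 10 (79854427 to 79864771, GRCm38, plus strand). Its mean level was 28.9, 82.3, 2.53 and 14.7 TPM in NBN (E16.5, E18.5, P1, P3). In BP it was 76.1, 54.1, 39.9, 109 and 84.7 TPM (E12.5, E14.5, E16.5, E18.5, P0), and the NSC sets had a lowest level of 22.6, a median of 74.1 and a highest of 166 TPM. Thus NSC E10.5 held the highest level and NBN P1 the lowest, while the ranges of the 3 populations overlapped. The NBN P1 value came from a single cell: 1 of 39 cells had Ptbp1 at 1 TPM or more (2.56%, exact 95% interval 0.0649% to 13.48%), and that cell held 100% of the summed Ptbp1. In NSC E10.5, 77 of 88 cells had it (87.5%, interval 78.7% to 93.6%). Both intervals cover counting error only, and the median cell had 3189 genes at 1 TPM or more in NBN P1 and 5688 in NSC E10.5. NBN P1 also had the highest median share of mitochondrial transcripts, 19.6%, against 5.58% to 12.7% in the other NBN sets and 5.25% to 8.50% in BP and NSC sets, and the part of this in the low Ptbp1 was not tested. At equal age the NBN level was 1.55 ± 0.71 (SE) lower than the NSC level on the log2 scale (limma, adjusted p = 0.293), with means of 4.27 ± 1.91 (SD, n = 4) and 6.12 ± 0.94 (SD, n = 8). It was -1.52 ± 0.79 without NBN P3 and NSC E15.5 (adjusted p = 0.279).

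Across the NSC series the share of cells with Ptbp1 was 87.5% at E10.5, 32.8% at E11.5, 57.6% at E13.5, 34.9% at E15.5, 39.5% at E17.5, then 16.7% (E18.5), 55.6% (P0) and 19.1% (P1). The later shares went up and down between neighbouring stages and none came back to the E10.5 share. The E18.5 and P1 sets also had the fewest genes per cell of the NSC series, with medians of 3428 and 3371. The linear slope of Ptbp1 with age was -0.08 ± 0.10 log2 units per day (limma, adjusted p = 0.832). In BP sets 21.0% to 36.0% of cells had Ptbp1.

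Ptbp2 lies on chromosome 3 (119718742 to 119784466, minus strand). It had 313, 307, 170 and 12.3 TPM in NBN (E16.5, E18.5, P1, P3). In BP it had 440, 218, 186, 263 and 341 TPM (E12.5, E14.5, E16.5, E18.5, P0), and in NSC a lowest level of 100.3, a median of 216 and a highest of 299 TPM. Apart from the set labelled NBN P3, every set had at least 100.3 TPM, the E10.5 stem cells included, which had 185.5 TPM in 78.4% of their cells. In order of level, the step from NSC P1 down to NBN P3 was the only one between neighbours that exceeded 2 SE over cells. Of the other members only Elavl4 had such a step, 1 of 16. Neighbours in a sorted order lie close by construction, so this count does not speak of sets further apart. Srrm4, with no such step, had 1.04 ± 0.59 TPM in NSC E10.5 and 64.7 ± 11.4 TPM in BP E18.5 (SE over cells). The Ptbp2 estimate was -0.12 ± 0.63 (SE) log2 units in NBN against NSC and 0.57 ± 0.53 in BP against NSC (limma, adjusted p = 0.963 and 0.661). Without NBN P3 and NSC E15.5 these were 0.66 ± 0.35 and 0.62 ± 0.28 (adjusted p = 0.287 and 0.226). The sign of the NBN estimate also turned with every set kept, to 0.32 with the mean of log2 over cells and 0.074 with equal medians.

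These gene-level values cannot show which Ptbp2 transcript was made. The annotation (GENCODE M21) holds an exon of 34 bases in Ptbp2, a length that is no multiple of 3, so that leaving it out shifts the reading frame. Ptbp1 protein is known to promote the skipping of such an exon in Ptbp2, and the skipped transcript is degraded. Of 6 annotated Ptbp2 transcripts that span its position, 3 contain it and all of these are protein-coding, while 2 of the other 3 are annotated as subject to nonsense-mediated decay. The exon lies at chr3:119724612-119724645 (GRCm38, minus strand) and is shown, all in capitals, because its use decides whether Ptbp2 transcript counts as productive:
Ptbp2 exon: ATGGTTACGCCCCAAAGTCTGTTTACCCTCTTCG
That annotation lists 13 transcripts of Ptbp2 and 16 of Ptbp1. The deposited TPM are given per gene, so a TPM of Ptbp2 in a cell with Ptbp1 does not say that protein was made.

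The balance of the pair was compared as log2(mean Ptbp2 TPM + 1) minus log2(mean Ptbp1 TPM + 1) per set. It was 3.40, 1.89, 5.60 and -0.24 in NBN (E16.5, E18.5, P1, P3). It was 2.52, 1.99, 2.19, 1.26 and 1.99 in BP (E12.5, E14.5, E16.5, E18.5, P0), and 0.16, 2.22, 1.48, 1.97, 2.61, 2.25, 0.76 and 0.44 in NSC (E10.5, E11.5, E13.5, E15.5, E17.5, E18.5, P0, P1). The NSC series thus had its lowest balance at E10.5 and its next lowest after birth, with the highest at E17.5. At P1 a single cell held 51.9% of the summed Ptbp1 and 9 of 47 cells had the gene, so that balance rests on few cells. Ptbp2 was the higher in 22 of the P1 cells and Ptbp1 in 7. The mean difference was 2.66 ± 2.46 in NBN (SD, n = 4), 1.99 ± 0.46 in BP (SD, n = 5) and 1.49 ± 0.93 in NSC (SD, n = 8). Two-sided exact permutation tests over sets, adjusted over 3 pairs, gave p = 0.424 for NBN against NSC, 0.424 for BP against NSC and 0.635 for NBN against BP. The unadjusted values were 0.246, 0.283 and 0.635, and the smallest that these designs allow are 0.00202, 0.000777 and 0.00794. Without the sets labelled NBN P3 and NSC E15.5 the difference averaged 3.63 in NBN and 1.42 in NSC (exact permutation p = 0.0417, adjusted p = 0.125). With the mean of log2 over cells in place of the log2 of the mean, it averaged 4.55 in BP and 2.48 in NSC (exact permutation p = 0.0186, adjusted p = 0.0559).

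In single cells Ptbp2 without Ptbp1 was the commonest of the 4 possible states in every set but NSC E10.5, E13.5, E18.5, P0 and P1 and the set labelled NBN P3. At E10.5, 61 of 88 stem cells had both genes at 1 TPM or more (69.3%, exact 95% interval 58.6% to 78.7%), 16 had Ptbp1 alone, 8 had Ptbp2 alone and 3 had neither. In BP E12.5, 68.1% of cells had Ptbp2 alone and 27.8% had both, and in NBN E16.5 these shares were 68.3% and 23.8%. Over all kept cells, 112 of 208 NBN cells, 210 of 335 BP cells and 215 of 532 NSC cells had Ptbp2 alone, and 30, 95 and 198 cells had both. Ptbp1 alone was seen in 6 NBN, 5 BP and 41 NSC cells. The share of cells with both can be set beside the product of the separate shares. It was 69.3% against a product of 68.6% at E10.5 and 27.8% against 28.0% in BP E12.5. It was 12.1% against 8.84% in NSC E18.5, 12.8% against 9.78% in NSC P1 and 42.2% against 45.7% in NSC P0. A cell at 0 can hold transcript that the capture missed, and 42.4% of NSC E18.5, 42.6% of NSC P1 and 41.0% of NBN P1 cells, which with NBN P3 are the sets with the fewest genes per cell, had neither gene.

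**Figure D2:**
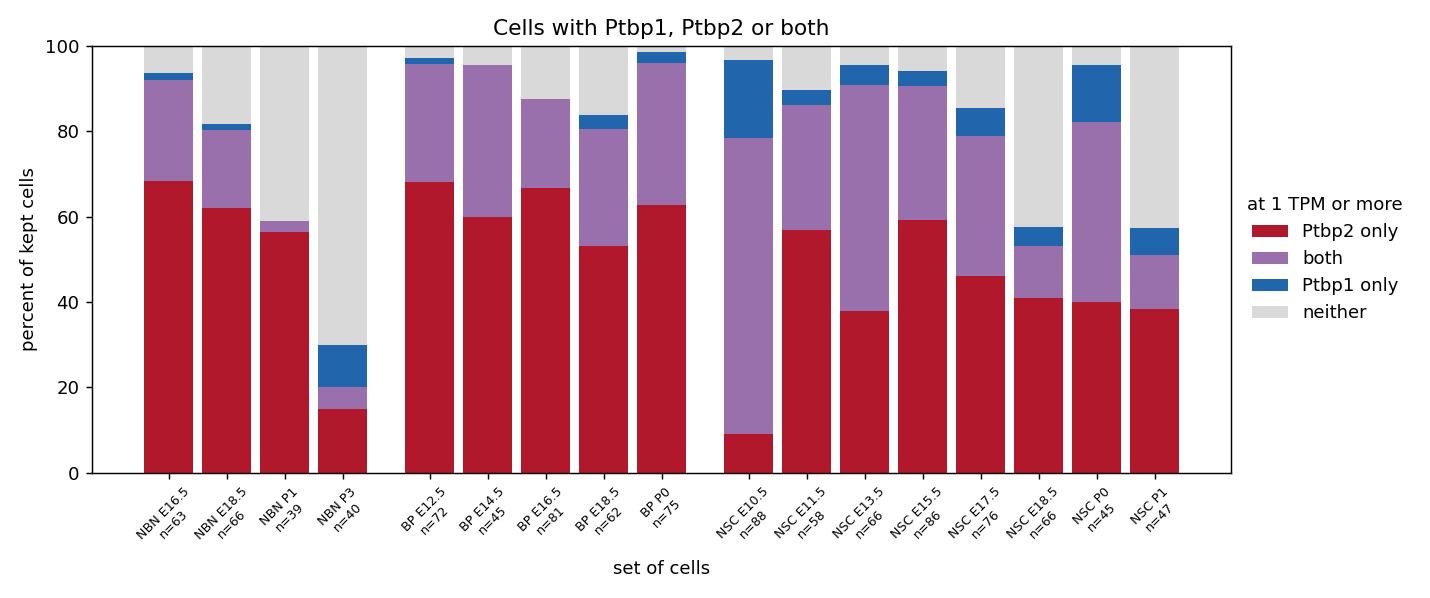
Stacked bars give, for each set of kept cells (x axis, with the number of cells), the percent of cells (y axis) with Ptbp2 only, both genes, Ptbp1 only or neither at 1 TPM or more. Purple, both genes, fills 69.3% of the NSC E10.5 bar, and red, Ptbp2 only, fills 53.2% to 68.1% of the BP bars.

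Rbfox1, a splicing activator and repressor of the neuronal Fox family (chromosome 16, 5885355 to 7411526, plus strand), had the widest spread of levels among NSC sets on the log2 scale. It had 86.6, 102, 109 and 19.2 TPM in NBN (E16.5, E18.5, P1, P3). In BP it had 5.54, 65.7, 29.3, 49.6 and 80.4 TPM (E12.5, E14.5, E16.5, E18.5, P0), and in NSC a lowest level of 0.177, a median of 1.95 and a highest of 57.5 TPM. NBN at E16.5, E18.5 and P1 stood above every other set, and the 2 NSC sets over 10 TPM were E15.5 (48.3 TPM) and E17.5 (57.5 TPM), which are also those with the highest shares of neuron-profile cells, 90.7% and 73.7%. In the set labelled NBN P3 a single cell held 88.8% of the summed Rbfox1. Within NSC E17.5, Rbfox1 averaged 1.86 TPM in the 22 cells with at least 2 interneuron markers at 10 TPM or more, against 80.1 TPM in the remaining 54 cells, a comparison picked out after its values were seen. The same split gave 7.11 against 54.4 TPM in NSC E15.5 (11 marker cells). It gave 80.0 against 87.6 TPM in NBN E16.5 (8 marker cells) and 31.6 against 29.1 TPM in BP E16.5 (7 marker cells). The other NSC sets split this way stayed under 10 TPM on both sides. The NBN minus NSC difference was 3.29 ± 1.15 (SE) log2 units (limma, adjusted p = 0.148), with means of 6.06 ± 1.16 (SD, n = 4) and 2.33 ± 2.27 (SD, n = 8). With stage as a factor it was 5.31 ± 0.85 and passed (limma, adjusted p = 0.0256, with 3.14% of genes called). In that fit only stages held by more than 1 population bear on the estimate. NBN and NSC share E18.5 and P1 alone, and E16.5 and P0 are linked through BP. NSC E15.5, NSC E17.5 and NBN P3 therefore had no weight in it. With linear age and without NBN P3 and NSC E15.5 the NBN minus NSC difference was 4.29 ± 1.01 and passed (limma, adjusted p = 0.0177, with 7.14% called). BP minus NSC was 2.76 ± 0.96 (adjusted p = 0.223) and, without these sets, 3.21 ± 0.82 (adjusted p = 0.0376; 4.19% called).

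Rbfox2, the more widely transcribed relative (chromosome 15, 77078990 to 77307004, minus strand), was present at every stage. It had 116, 114, 49.5 and 30.8 TPM in NBN (E16.5, E18.5, P1, P3). In BP it had 136, 97.0, 74.9, 89.1 and 108 TPM (E12.5, E14.5, E16.5, E18.5, P0), and in NSC a lowest level of 10.2, a median of 39.7 and a highest of 134 TPM. The NSC sets of E18.5 and P1, at 10.2 and 10.9 TPM, lay below all others, and 72.8% to 93.3% of BP cells had the gene against 17.0% to 76.7% of NSC cells. NBN minus NSC was 1.34 ± 0.61 (limma, adjusted p = 0.289) and BP minus NSC 1.54 ± 0.51 (adjusted p = 0.209). With stage as a factor the NBN difference was 2.60 ± 0.53 and passed (limma, adjusted p = 0.0450). The stages that NBN and NSC share in that fit are E18.5 and P1, where the NSC level of Rbfox2 was lowest. Without NBN P3 and NSC E15.5 the NBN and BP differences were 1.67 ± 0.63 and 1.68 ± 0.51, and neither passed (adjusted p = 0.123 and 0.0724).

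Nova2 (chromosome 7, 18925888 to 18965319, plus strand) and Nova1 (chromosome 12, 46694517 to 46818929, minus strand) encode KH-domain splicing factors, and their levels ran in different directions. Nova2 had 21.5, 13.8, 5.44 and 7.24 TPM in NBN (E16.5, E18.5, P1, P3), and 35.4, 34.9, 20.4, 19.4 and 25.7 TPM in BP (E12.5, E14.5, E16.5, E18.5, P0). In NSC it had a lowest level of 1.25, a median of 5.94 and a highest of 18.6 TPM. Every BP set was thus above every NSC set, the margin being 19.4 against 18.6 TPM. Of all genes tested, 0.433% showed no overlap with BP higher. The separation was lost once cells with other types' markers were removed. NSC E17.5 then had 22.4 TPM, above BP E18.5 at 20.8 and BP P0 at 20.4 TPM. Nova2 was at 1 TPM or more in 43.4% of NSC E17.5 cells and 42.7% of BP P0 cells. In BP E14.5 a single cell held 50.9% of the summed Nova2. BP minus NSC was 2.06 ± 0.55 (SE) log2 units (limma, unadjusted p = 0.00139, adjusted p = 0.118), with means of 4.77 ± 0.40 (SD, n = 5) and 2.72 ± 1.10 (SD, n = 8). Without NBN P3 and NSC E15.5 it was 2.20 ± 0.56 and passed (adjusted p = 0.0368). NBN minus NSC was 0.87 ± 0.65 (adjusted p = 0.569) and, without these sets, 1.12 ± 0.69 (adjusted p = 0.374).

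Nova1 had 3.09, 4.74, 12.9 and 5.31 TPM in NBN (E16.5, E18.5, P1, P3), and 14.1, 1.17, 7.11, 4.27 and 4.40 TPM in BP (E12.5, E14.5, E16.5, E18.5, P0). In NSC it had 9.33, 5.20, 11.1, 0.448, 2.88, 33.6, 31.2 and 26.0 TPM from E10.5 to P1. Its 3 highest sets were the last 3 of the NSC series, which also held 14, 8 and 12 cells with at least 2 oligodendrocyte markers at 10 TPM or more, against at most 1 in any other set. In those cells Nova1 averaged 116 TPM at E18.5, 70.5 TPM at P0 and 62.6 TPM at P1, against 11.6, 22.7 and 13.495 TPM in the remaining cells of the same sets. It was at 1 TPM or more in 11 of 14, 4 of 8 and 7 of 12 of the marker cells. In the remaining cells it was in 10 of 52, 17 of 37 and 6 of 35, so the shares were close at P0 (50% and 45.9%). A single cell held 48.2%, 28.0% and 46.7% of the summed Nova1 in these 3 sets, so the means rest on few cells. The remaining cells stood above the BP median of 4.40 TPM as well, though BP E12.5 reached 14.1 TPM. The slope with age in NSC was 0.19 ± 0.13 log2 units per day (limma, adjusted p = 0.598). The Nova1 estimate was -1.06 ± 0.85 in NBN against NSC (limma, adjusted p = 0.603) and -0.85 ± 0.71 in BP against NSC (adjusted p = 0.625). With NBN P3 and NSC E15.5 left out these were -1.32 ± 0.77 and -1.25 ± 0.62 (adjusted p = 0.339 and 0.270).

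Srrm4, the microexon activator (chromosome 5, 116439275 to 116591817, minus strand), had 49.5, 29.8, 46.9 and 3.03 TPM in NBN (E16.5, E18.5, P1, P3). In BP it had 35.9, 49.9, 49.3, 64.7 and 48.3 TPM (E12.5, E14.5, E16.5, E18.5, P0), and in NSC a lowest level of 1.04 (E10.5), a median of 20.1 and a highest of 57.0 TPM (E15.5). At E11.5, a day after the first set, 60.3% of the NSC cells had Srrm4, against 9.09% at E10.5, and 53.4% of the E11.5 cells were neuron-profile against 2.27% at E10.5. Markers of another cell type were held by 41 of 58 cells at E11.5 and 31 of 88 at E10.5. Erythroid markers, mostly globins, were in 37 and 24 of these cells and interneuron markers in 16 and 1. Without these cells Srrm4 averaged 16.0 TPM in the 17 that remained at E11.5 and 1.18 TPM in the 57 at E10.5. BP minus NSC was 1.71 ± 0.76 (SE) log2 units (limma, adjusted p = 0.333) and NBN minus NSC 0.74 ± 0.91 (adjusted p = 0.776). Leaving out NBN P3 and NSC E15.5 gave 1.96 ± 0.63 and 1.62 ± 0.78 (adjusted p = 0.0886 and 0.240). In NBN P1 and P3 a single cell held 59.5% and 92.2% of the summed Srrm4, so those means rest on few cells.

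The 3 Elavl genes encode the neuronal Hu proteins, and with Ptbp2 they were the most abundant members in BP sets. Elavl4 (chromosome 4, 110203722 to 110351909, minus strand) had 169, 183, 84.7 and 63.9 TPM in NBN (E16.5, E18.5, P1, P3), and 588, 344, 323, 266 and 216 TPM in BP (E12.5, E14.5, E16.5, E18.5, P0). In NSC it had a lowest level of 50.3, a median of 251 and a highest of 311 TPM. Every NBN set was below every BP set in Elavl4, and the BP levels were lower at each later stage. Its BP slope with age was -0.18 ± 0.13 log2 units per day (limma, adjusted p = 1.0). BP E12.5, at 588 ± 80.1 TPM (SE over 72 cells), was the only set to stand over its neighbour in order by more than 2 SE.

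Elavl2 (chromosome 4, 91250763 to 91400785, minus strand) had 128, 85.0, 94.2 and 19.3 TPM in NBN (E16.5, E18.5, P1, P3). In BP it had 182, 129, 186, 238 and 190 TPM (E12.5, E14.5, E16.5, E18.5, P0), and in NSC a lowest level of 16.49, a median of 85.6 and a highest of 168 TPM. Elavl2 likewise had no NBN set as high as the lowest BP set, by 128 against 129 TPM, and in NSC P1 a single cell held 84.4% of the summed Elavl2. Non-overlap with NBN lower held for 2.82% of all genes tested and for 2 of the 10 members. NBN minus BP was -1.50 ± 0.65 for Elavl2 and -1.31 ± 0.57 for Elavl4 (limma, adjusted p = 0.496 for both, unadjusted p = 0.0340 for both). Leaving out NBN P3 and NSC E15.5 gave -1.02 ± 0.54 and -1.15 ± 0.58 (adjusted p = 0.563 and 0.542).

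Elavl3 (chromosome 9, 22015005 to 22052023, minus strand) had 214, 198, 102 and 28.5 TPM in NBN (E16.5, E18.5, P1, P3). In BP it had 223, 212, 160, 129 and 167 TPM (E12.5, E14.5, E16.5, E18.5, P0), and in NSC a lowest level of 9.46 (E10.5), a median of 92.2 and a highest of 173 TPM. It was at 1 TPM or more in 87.2% to 96.8% of cells in NBN without P3, in 90.1% to 100% in BP and in 31.8% to 95.3% in NSC. BP minus NSC was 1.29 ± 0.59 (SE) log2 units (limma, adjusted p = 0.340), and NBN minus NSC 0.55 ± 0.70 (adjusted p = 0.782). The Elavl2 and Elavl4 estimates in BP against NSC were 1.30 ± 0.52 and 0.98 ± 0.45 (adjusted p = 0.279 and 0.351). Without NBN P3 and NSC E15.5 the BP minus NSC differences were 1.43 ± 0.51 for Elavl3, 1.44 ± 0.42 for Elavl2 and 1.09 ± 0.45 for Elavl4, and NBN minus NSC was 1.19 ± 0.63 for Elavl3. None of these 4 passed (adjusted p = 0.119, 0.0606, 0.183 and 0.288).

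**Figure D3:**
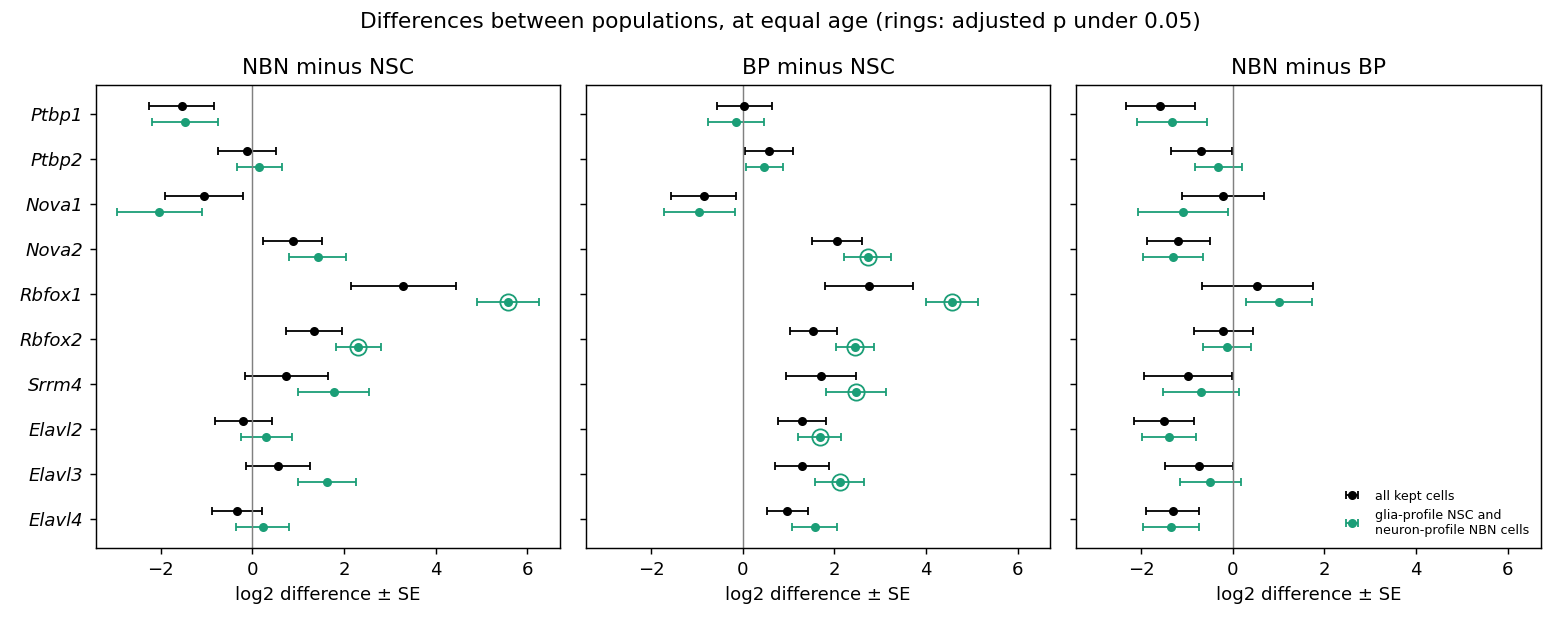
Each panel plots the log2 difference ± 1 SE (x axis) of the 10 genes (y axis) in 1 contrast at equal age, from all kept cells (black) and from glia-profile NSC, neuron-profile NBN and all BP cells (green). Rings mark an adjusted p under 0.05 over all genes: there are none in black, 2 green ones in NBN minus NSC and 6 in BP minus NSC.

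No member had all its NBN sets above or all below the NSC sets, as 0.426% and 1.58% of all genes did. Read against all genes, the members' estimates leaned one way in BP. In BP against NSC, 9 of 10 members had positive estimates, with a median of 1.30 against a median of 0.14 over all genes, and 7 of 10 had an unadjusted p under 0.05 against 13.7% of all genes. In NBN against NSC, 5 of 10 were positive, with a median of 0.22 against -0.11, and 3 of 10 had an unadjusted p under 0.05 against 16% of all genes. In NBN against BP, 9 of 10 were negative, with a median of -0.86 against -0.23, and 2 of 10 had an unadjusted p under 0.05 against 9.24%. With age in NSC, 7 of 10 slopes were positive, none had an unadjusted p under 0.05 against 13.1% of all genes, and the median was 0.05 against 0.01 log2 units per day. The contrasts share sets, so these counts are not independent of each other. Several members also moved together over the sets, with r up to 0.92 for Srrm4 and Elavl2, so the genes in a count are not separate observations. The members were chosen with earlier results of these data known.

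The NSC sets hold different shares of neuron-profile cells, so the fit was repeated with glia-profile NSC cells, neuron-profile NBN cells and all BP cells, an alternative chosen after seeing the data. In it 6 members passed in BP against NSC: Rbfox1 (4.57 ± 0.57 log2 units, adjusted p = 0.000207), Rbfox2 (2.44 ± 0.41), Nova2 (2.73 ± 0.52), Srrm4 (2.47 ± 0.65), Elavl3 (2.12 ± 0.53) and Elavl2 (1.68 ± 0.47). The background was 5.75% of 13811 genes called (limma). In NBN against NSC, Rbfox1 (5.57 ± 0.68) and Rbfox2 (2.31 ± 0.49) passed, with 6.01% of genes called. Ptbp1 was -1.47 ± 0.72 in NBN against NSC (adjusted p = 0.285) and -0.14 ± 0.61 in BP against NSC (adjusted p = 0.924). The cells were picked by neuronal and glial markers on both sides of NBN against NSC, and glia-profile NSC cells were set against BP sets that are 95.2% to 100% neuron-profile. Part of any difference in a neuronal gene therefore follows from the choice in both contrasts.

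Within single NSC sets the same split compares cells that share a sort and a stage. The classes are cut by neuronal and glial markers, so here too part of any difference in a neuronal gene follows from the cut. In the 6 NSC sets with at least 5 cells of both kinds, Rbfox1 and Srrm4 were higher in neuron-profile cells in 6 of 6, as were 2.73% of all 14070 genes compared. Some of these directions rest on few cells at 1 TPM or more. Rbfox1 was in 2 of 31 neuron-profile and 0 of 27 glia-profile cells at E11.5, and 5 of 35 and 1 of 31 at E13.5. At E18.5 Rbfox1 was in 2 of 17 and 3 of 49, and at P1 both genes were in 2 of 6 and 1 of 41. Rbfox2, Elavl2 and Elavl3 were higher in 5 of 6, Nova2 and Elavl4 in 4, and Nova1 in 2. Of all genes, 11.9% were higher in at least 5 sets and 31.9% in at least 4. Ptbp1 and Ptbp2 were lower in 5 of 6 sets, as were 14.8% of all genes in at least 5 and 3.33% in 6 of 6. Few cells stand behind some Ptbp1 directions too. It was in 2 of 17 neuron-profile and 9 of 49 glia-profile cells at E18.5, and in 1 of 6 and 8 of 41 at P1. The median difference was 2.34 log2 units for Rbfox1, 2.31 for Elavl3, 1.82 for Rbfox2, 1.18 for Elavl4, 1.02 for Nova2, 1.01 for Srrm4 and 0.35 for Elavl2. It was -0.21 for Ptbp2, -0.81 for Nova1 and -0.98 for Ptbp1, against 0 over all genes. These are descriptions with no test, and 47 of all kept cells lie within 0.5 log2 units of the line between the classes.

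The E17.5 set shows the contrast most widely for Rbfox1, with 78.0 TPM in its 56 neuron-profile cells and 0.0273 TPM in its 20 glia-profile cells. At E15.5 Rbfox1 was at 53.2 and 0.468 TPM in neuron-profile and glia-profile cells. Srrm4 had 62.2 TPM in neuron-profile and 5.72 TPM in glia-profile cells at E15.5, where only 8 cells were glia-profile. Ptbp1 had 25.2 TPM in neuron-profile and 70.2 TPM in glia-profile cells at E11.5, and 88.9 and 127 TPM at E13.5. At E13.5, 42.9% of neuron-profile cells (exact 95% interval 26.3% to 60.6%) and 74.2% of glia-profile cells (55.4% to 88.1%) had Ptbp1, with medians of 5326 and 5520 genes per cell. E15.5 was the exception for the mean level of Ptbp1, with 76.3 TPM in neuron-profile and 59.4 TPM in glia-profile cells. By share of cells it was not, with Ptbp1 in 34.6% of neuron-profile and 37.5% of glia-profile cells. Ptbp2 had 279 TPM in neuron-profile and 323 TPM in glia-profile cells at E13.5. At P1 the neuron-profile side is only 6 cells, and Elavl2, Elavl4, Nova2 and Rbfox2 were lower there.

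**Figure D4:**
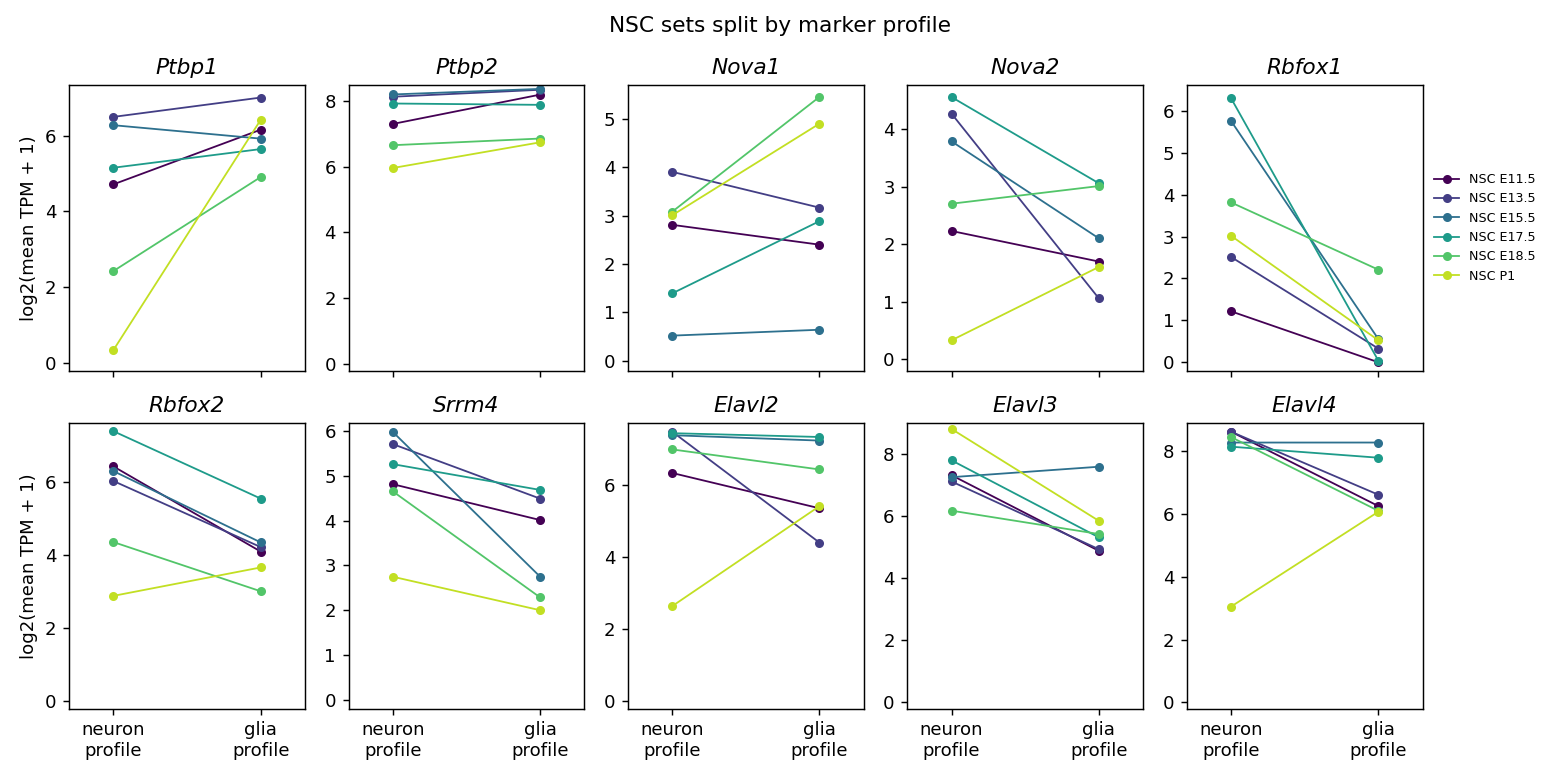
Each panel plots 1 gene as log2(mean TPM + 1) in neuron-profile cells (left) and glia-profile cells (right) of the 6 NSC sets that hold at least 5 of each, 1 line a set. The Rbfox1 and Srrm4 lines all go down to the right, and 5 of 6 Ptbp1 lines go up to the right.

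The members' levels over the 17 sets were also set beside each other and beside all other tested genes. Srrm4 and Elavl2 had the highest Pearson r of the member pairs (0.92, Spearman rho 0.81), whereas Rbfox2 and Elavl3 had the highest rho (0.90, r = 0.72). Srrm4 and Elavl3 had r = 0.83 and rho = 0.62, and Ptbp1 and Ptbp2 had r = 0.43. Nova1 had negative r with each of the other 9 members, down to -0.66 with Rbfox2. The genes most like Ptbp1 were Nufip2, Stk16 and Gtf3c2 (r from 0.88 to 0.90), and those most like Ptbp2 were C2cd5, Dnajb6 and Fubp1 (0.93 to 0.95). For Srrm4 they were Ppfia2, Sox4 and Akap9 (0.95 to 0.97), for Elavl2 Akap9, Gm21319 and Sox4 (0.94 to 0.97), and for Elavl3 Atat1, Dcx and Dpysl3 (0.95 to 0.97). For Rbfox1 they were Znrf2, Clmp and Arpp21 (0.90 to 0.92), for Rbfox2 Kif5c, Socs5 and Fbxl16 (0.91 to 0.94), for Nova2 Atf7ip, A530032D15Rik and Kif21b (0.90 to 0.92), and for Elavl4 Ccdc88c, Gfod2 and Sorbs2 (0.88 to 0.89). Nova1 was most like Cnp, Ppp1r3c and Pllp (0.81 to 0.86), of which Cnp and Pllp encode myelin proteins. The sets share the populations, the captures and the mix of cells, so these values describe the 17 sets only.

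The promoters of Srrm4 and Elavl3 are shown with that of Ptbp1, as examples with either of 2 motifs or both, from RefSeq (GRCm38.p6), 250 bases before to 50 after the start. Capitals mark matches on either strand to CAGATG, whose reverse complement is CATCTG, or to CAGCTG, which is its own reverse complement. Both are forms of the E-box, the element bound by the neurogenic bHLH factors. Ptbp1 is at chr10:79854182-79854481 (plus strand), Srrm4 at chr5:116591768-116592067 (minus strand) and Elavl3 at chr9:22051974-22052273 (minus strand):
Ptbp1: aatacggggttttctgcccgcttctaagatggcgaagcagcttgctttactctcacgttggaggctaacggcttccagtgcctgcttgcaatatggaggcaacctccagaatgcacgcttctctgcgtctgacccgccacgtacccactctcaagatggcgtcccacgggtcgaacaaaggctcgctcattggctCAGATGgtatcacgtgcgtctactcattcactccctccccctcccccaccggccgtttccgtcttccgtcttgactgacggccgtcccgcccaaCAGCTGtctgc
Srrm4: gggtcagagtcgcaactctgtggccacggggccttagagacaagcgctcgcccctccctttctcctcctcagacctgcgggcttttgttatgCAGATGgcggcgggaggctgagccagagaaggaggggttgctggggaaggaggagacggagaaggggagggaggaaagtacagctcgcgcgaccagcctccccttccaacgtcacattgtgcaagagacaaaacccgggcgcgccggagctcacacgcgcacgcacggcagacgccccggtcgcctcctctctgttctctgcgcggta
Elavl3: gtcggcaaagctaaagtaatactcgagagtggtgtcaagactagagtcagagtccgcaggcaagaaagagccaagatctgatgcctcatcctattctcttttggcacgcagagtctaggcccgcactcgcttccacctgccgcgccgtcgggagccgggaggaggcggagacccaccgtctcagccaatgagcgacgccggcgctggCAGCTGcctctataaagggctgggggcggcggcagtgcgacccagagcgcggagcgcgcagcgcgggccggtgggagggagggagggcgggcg
CAGATG was found in 17.2% and CAGCTG in 16.1% of 27025 promoters of this length. Ptbp1 holds both, Srrm4 the first and Elavl3 the second. Over all members, 9 had an entry, of which 3 held CAGATG and 6 held CAGCTG at 1 or more of their starts. These 9 genes have 18 starts in all, some of whose windows overlap, so the gene counts cannot be read against the shares of single promoters. The windows of Ptbp1, Srrm4 and Elavl3 hold 22, 25 and 29 CpG, against a median of 7 and an upper quartile of 21 over all promoters. A match is a run of letters and not a measured site.

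Of the other genes of the splicing and RNA-binding machinery, 72 of 78 listed genes could be tested. In NBN against NSC none was called higher and 2 were called lower, in BP against NSC none was called higher and 2 were called lower, in NBN against BP none was called, and with age in NSC 1 rose and 2 fell. At an unadjusted p under 0.05 (limma) there were 14, 16, 6 and 13 of the 72, beside 16%, 13.7%, 9.24% and 13.1% of all genes. Among 15 tissue-selective splicing regulators, Qk, an RNA-binding protein of glia and neural stem cells, fell by 2.44 ± 0.50 (SE) log2 units in NBN against NSC and fell by 2.15 ± 0.42 in BP against NSC (limma, adjusted p = 0.0211 and 0.0223). Its means were 6.55 ± 1.18 in NBN (SD, n = 4), 6.14 ± 0.54 in BP (SD, n = 5) and 8.20 ± 1.20 in NSC (SD, n = 8), and with age in NSC it rose by 0.27 ± 0.07 per day (adjusted p = 0.0491). The Qk calls were lost in 9 of 34 alternatives for NBN, in 12 of 34 for BP and in 20 of 32 for age, always in the same direction, with adjusted p up to 0.141, 0.155 and 0.682. A second row of the tables carries the symbol Qk and did not pass the filter on low values. Khdrbs2, a relative of the splicing factor Sam68, had 2.84 ± 1.09 in NBN and 2.14 ± 0.92 in BP against NSC (adjusted p = 0.191 and 0.313), and Celf3 had 2.26 ± 0.86 in BP (adjusted p = 0.262). Celf6 had 1.55 ± 0.65 in NBN (adjusted p = 0.236), and Mbnl3 had -0.44 ± 0.57 in NBN and -1.05 ± 0.48 in BP (adjusted p = 0.792 and 0.344).

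None of 9 relatives of the members and none of 26 SR and hnRNP factors was called in the contrasts with NSC (limma). At an unadjusted p under 0.05 there were 2 relatives in each contrast, and 5 SR and hnRNP factors in NBN and 3 in BP against NSC. The shares of all genes were 16% in NBN and 13.7% in BP against NSC. Raver1, a partner of Ptbp1, had -1.36 ± 0.41 in NBN against NSC and -0.87 ± 0.34 in BP against NSC (limma, adjusted p = 0.0887 and 0.273), and Raver2 had -2.02 ± 0.82 and -0.95 ± 0.69. Matr3 had 0.36 ± 0.39 and 0.87 ± 0.33, and Rbfox3, the neuronal nuclear antigen, 0.60 ± 1.03 and 1.76 ± 0.87. Of the SR and hnRNP factors, 22 of 26 had negative estimates in NBN against NSC, with a median of -0.33 against -0.11 over all genes. Their ends were Hnrnpm (-1.06 ± 0.38) and Tardbp (-0.84 ± 0.37) on the low side and Hnrnpll (1.01 ± 0.78) and Tra2a (0.43 ± 0.60) on the high side. In BP against NSC 14 of 26 were negative, with a median of -0.0022, and the ends were Tardbp (-0.76 ± 0.31), Hnrnpf (-0.63 ± 0.22), Tra2a (0.86 ± 0.50) and Srsf11 (0.60 ± 0.22).

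Of 20 regulators of translation and mRNA stability, Fxr2, a relative of the fragile X protein, fell by 1.82 ± 0.45 in NBN against NSC (limma, adjusted p = 0.0482), with means of 2.00 ± 0.34 in NBN (SD, n = 4) and 3.46 ± 0.56 in NSC (SD, n = 8). That call was lost in 26 of 34 alternatives, with adjusted p up to 0.301. Zfp36l1, which promotes the decay of AU-rich transcripts, fell by 3.97 ± 0.83 in BP against NSC (adjusted p = 0.0343), with means of 1.37 ± 1.57 in BP (SD, n = 5) and 5.33 ± 0.93 in NSC (SD, n = 8), and lost the call in 14 of 34 alternatives (adjusted p up to 0.121). With age in NSC, Lin28b, the inhibitor of let-7 maturation, fell by 0.46 ± 0.08 and Igf2bp1 by 0.37 ± 0.09 log2 units per day (adjusted p = 0.00777 and 0.0446). The Lin28b call was lost in 3 of 30 alternatives, among them leaving out NSC E10.5 (adjusted p = 0.0897), and the Igf2bp1 call in 21 of 32, of which the fit to sets from E16.5 on turned its sign (0.21 per day, adjusted p = 0.942). Not called were Msi2 (-1.66 ± 0.52), Cpeb2 (1.26 ± 0.88) and Zfp36 (1.56 ± 1.24) in NBN against NSC, and Fxr1 (-0.63 ± 0.24), Cpeb2 (1.62 ± 0.74) and Stau2 (1.01 ± 0.57) in BP against NSC. Rest averaged 3.38 ± 2.18 in NBN, 2.55 ± 0.57 in BP and 3.97 ± 0.80 in NSC on the log2(TPM + 1) scale, with BP minus NSC at -1.42 ± 0.68 (adjusted p = 0.369) and NBN minus NSC at -0.60 ± 0.81 (adjusted p = 0.802). Its partner Rcor1 had -0.28 ± 0.36 in BP and 0.09 ± 0.42 in NBN against NSC. The host genes of miR-124 were not analysed here.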

How the data were processed

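Single cells of mouse dorsal cortex were measured as full-length cDNA sequenced in single-end reads. TPM per gene were deposited by the authors, made with kallisto 0.43.0 on GRCm38.p2 and mm10, per the submitters' processing notes; how transcripts were summed to genes is not given in the sources used here. Columns sum to 999993 to 1000012.8, so the depth is unknown. In the deposited files, 7 near-empty columns hold only whole numbers and were recorded as a score; none passed the filter on cells.

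A cell was kept with at least 500 genes at 1 TPM, which left out 19 of 1094, and no doublet caller was run. Each of 17 sets gave log2(mean TPM + 1) per gene. Genes at 1 TPM or more in at least 4 sets (14093) were fitted with limma 3.58.1 (R 4.3.3; trended variance) on population and linear age, with separate slopes for age effects, and Benjamini-Hochberg adjustment over all genes. Postnatal sets were placed at 18.5 plus their labelled age in days, which is not the day in the stage name. This put P0 at 19.5, P1 at 20.5 and P3 at 22.5 days. The added 1 TPM makes differences of low genes smaller than they are. The fit was tested on simulated data. Ptbp2 minus Ptbp1 was compared by exact two-sided permutation of sets. Shares of cells carry exact 95% binomial intervals, which cover counting error only.

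Members and gene lists were chosen with earlier results of these data known. In each list, called genes are named, and in the contrasts with NSC also the 2 highest and 2 lowest estimates. The 3 most similar genes per member are named by Pearson r over sets. Sequences are from RefSeq (GRCm38.p6) and GENCODE M21. The alternatives changed the pseudocount, filter, scaling, cells, sets and age term.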

Additional observations from a re-analysis of the deposited data

Results flagged for a closer look

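Each member's level was checked within NBN, BP and NSC for a set that stands far from the rest, over 30 groups of 4 to 8 sets plus the 3 groups of the Ptbp2 minus Ptbp1 difference. Chance flags about 1 in 20 such groups, and 2 of 33 were flagged. Rbfox1 in the set labelled NBN P3 was at 4.33 on the log2(TPM + 1) scale, against 6.45 in the nearest NBN set, a gap of 0.865 of the range of the 4 sets. Elavl3 in NSC E10.5 was at 3.39, against 5.65 in the nearest NSC set, a gap of 0.559 of the range of the 8 sets. NSC E10.5 also had the smallest share of neuron-profile cells, 2.27%, and the part of this in its Elavl3 level was not tested.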

How the results depend on the processing

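Of 1340 member values under alternatives, 1258 kept their direction and side of the threshold, 69 turned in sign and 13 became calls, which the report gives; none of the turned ones was called. The alternatives with selected cells and without NBN P3 and NSC E15.5 were chosen after seeing the data. Where no construction shows it, the cause was not tested. No paired analysis was possible because replicate numbers only name cells and each set gives 1 value. Stages that populations share were taken as a block in the setting with stage as a factor.

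The count of genes called in NBN against NSC (245) was 120 with no filter, 467 without NSC E15.5, 442 with stage as a factor, 830 with selected cells, 986 without NBN P3 and NSC E15.5, and 78 to 626 leaving out 1 set. In BP against NSC (72) it was 29 with no filter, 15 with the mean of log2, 34 without cells holding markers of another type, 179 without NSC E15.5, 188 without the postnatal NBN sets, 35 with no age term, 794 with selected cells, 578 without NBN P3 and NSC E15.5, and 27 to 179 leaving out 1 set. In NBN against BP (4) it was 1 with a pseudocount of 10 TPM, 2 with no filter, 2 with equal medians, 2 with all cells, 2 without NSC E15.5, 13 without the postnatal NBN sets, 1 from E16.5 on, 0 with stage as a factor, 0 with selected cells, 18 without NBN P3 and NSC E15.5, and 2 to 17 leaving out 1 set. For the NSC slope (203) it was 2153 with the mean of log2, 0 from E16.5 on, where 4 NSC sets remain, 322 without NBN P3 and NSC E15.5, and 87 to 303 leaving out 1 set.

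The Ptbp2 minus Ptbp1 difference in NBN against BP turned to -0.99 with the mean of log2 (exact permutation, adjusted p = 0.476) and ran from -0.31 to 1.64 leaving out 1 set. It ran from 0.19 to 2.14 in NBN against NSC and from 0.31 to 0.69 in BP against NSC.

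In BP against NSC, Ptbp1 turned to -0.67 (mean of log2), -0.069 (equal medians), -0.042 (without cells of another type), -0.12 (stage as a factor), -0.0016 (no age term) and -0.14 (selected cells), and ran from -0.18 to 0.23 leaving out 1 set.

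In NBN against NSC, Ptbp2 turned to 0.32 (mean of log2), 0.072 (quantile normalization), 0.074 (equal medians), 0.78 (without postnatal NBN), 1.17 (stage as a factor), 0.15 (selected cells) and 0.66 (without NBN P3 and NSC E15.5). Elavl2 turned to 0.38 (without postnatal NBN), 0.62 (stage as a factor), 0.30 (selected cells) and 0.43 (without NBN P3 and NSC E15.5), and Elavl4 to 0.11, 0.074 and 0.22 under the first 3 of these. Leaving out 1 set gave -0.56 to 0.58 for Ptbp2 and -0.66 to 0.27 for Elavl2.

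In NBN against BP, without the postnatal NBN sets and with stage as a factor, Ptbp2 turned to 0.25 and 0.40, Rbfox2 to 0.30 and 0.51, and Elavl3 to 0.14 and 0.065. Ptbp2 was 0.046 without NBN P3 and NSC E15.5. Rbfox2 was 0.093 with equal medians and 0.056 from E16.5 on. Nova1 turned to 0.050 (quantile normalization), 0.062 (equal medians), 0.52 (without cells of another type) and 0.18 (no age term), and Rbfox1 to -0.24 without cells of another type. Leaving out 1 set gave -1.12 to 0.050 for Ptbp2, -0.50 to 0.092 for Nova1 and -0.44 to 0.013 for Rbfox2.

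The NSC slopes from E16.5 on turned to 0.52 for Ptbp1, -0.87 for Nova2, -1.66 for Rbfox1, -0.81 for Srrm4, -0.68 for Elavl2, -0.20 for Elavl3, -0.54 for Elavl4 and 0.21 for Igf2bp1. With the mean of log2 they were -0.066 for Srrm4, -0.062 for Elavl2, -0.024 for Elavl3 and -0.016 for Elavl4. Srrm4 was -0.010 with a pseudocount of 10 TPM and -0.035 in cells with at least 2000 genes, and Elavl4 -0.014 with equal medians. Leaving out 1 set gave -0.048 to 0.17 for Nova2, -0.010 to 0.25 for Rbfox1, -0.19 to 0.0067 for Rbfox2, -0.24 to 0.17 for Srrm4, -0.052 to 0.20 for Elavl2, -0.054 to 0.21 for Elavl3 and -0.14 to 0.13 for Elavl4.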
